A study of Mus musculus with 6 samples.

Results

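The heparin-binding growth factors pleiotrophin and midkine, the 4 syndecans and 4 further proteins that bind these factors were followed in NIH/3T3, an established fibroblast line derived from mouse embryos. The 10 genes were looked up by symbol among the 54752 genes of the count table: Ptn, Mdk, Sdc1, Sdc2, Sdc3, Sdc4, Gpc1, Ptprz1, Lrp1 and Ncl. They were chosen by their related function with measured values of these libraries in view, among them the log2 fold change of Ptn under TGF-β1 against vehicle, so their comparisons with vehicle are given as values and not as tests. Total RNA depleted of rRNA was sequenced in 3 groups of 2 replicates, all grown in DMEM complete medium. One group received vehicle (PBS), a second DMSO together with 1 ng/ml TGF-β1, and the third 5 µM BI6727 together with 1 ng/ml TGF-β1, each for 72 h. BI6727 (volasertib) is an inhibitor of the mitotic kinase PLK1. No group received BI6727 without TGF-β1 or DMSO without TGF-β1, so DMSO and TGF-β1 cannot be told apart in the comparison with vehicle, and the labels do not say whether the replicates came from separate cultures, so p-values measure only the spread between these samples.

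Pleiotrophin (Ptn) and midkine (Mdk) are a pair of small secreted proteins that bind heparin and the sulfated sugar chains of proteoglycans, and are known for their part in development, in repair and in the growth of tumour and connective tissue cells. At the cell surface they bind heparan and chondroitin sulfate chains, such as those carried by the syndecans (transmembrane proteoglycans, Sdc1 to Sdc4), by glypican 1 (Gpc1, anchored to the membrane by a lipid) and by the receptor phosphatase PTPRZ1, whose activity pleiotrophin is known to block. LRP1 is an endocytic receptor that takes up many ligands, and nucleolin (Ncl) is an abundant protein of the nucleolus that also reaches the cell surface and binds both factors there.

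RefSeq promoter windows of GRCm38.p6 (mm10) were found for 7 of the 10 genes. The part shown lies upstream of the RefSeq start site and ends before the first exonic base in the window. It is given for Ptn, the gene with the largest change, and for Sdc3 and Sdc4. These are the 2 syndecans with the largest changes in opposite directions under TGF-β1 with DMSO. The part shown for Sdc4 lies within the span of that gene in the count table, chr2:164424247-164443887, so annotated exons lie further upstream. Ptn is shown on the minus strand, chr6:36810221-36810429, Sdc3 on the plus strand, chr4:130792287-130792536, and Sdc4 on the minus strand, chr2:164443189-164443438. Capitals mark matches, on either strand, to the SMAD-binding element (CAGAC or GTCTG), the AP-1 site (TGANTCA) and the GC box (GGGCGG or CCGCCC), none of which shared bases with another.
Ptn: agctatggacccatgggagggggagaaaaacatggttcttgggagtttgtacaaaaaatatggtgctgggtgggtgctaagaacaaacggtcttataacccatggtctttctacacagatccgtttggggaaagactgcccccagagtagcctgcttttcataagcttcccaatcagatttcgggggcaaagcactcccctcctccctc
Sdc3: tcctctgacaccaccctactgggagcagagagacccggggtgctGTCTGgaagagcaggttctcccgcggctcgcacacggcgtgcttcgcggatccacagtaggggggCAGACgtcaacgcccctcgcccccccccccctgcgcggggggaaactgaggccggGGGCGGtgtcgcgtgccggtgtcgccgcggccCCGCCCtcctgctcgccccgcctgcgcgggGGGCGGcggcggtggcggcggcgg
Sdc4: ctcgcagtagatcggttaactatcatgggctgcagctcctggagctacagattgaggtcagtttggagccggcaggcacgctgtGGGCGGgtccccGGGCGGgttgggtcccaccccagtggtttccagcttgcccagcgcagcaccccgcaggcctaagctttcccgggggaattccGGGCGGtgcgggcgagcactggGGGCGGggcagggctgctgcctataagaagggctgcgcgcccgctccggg
The window of Ptn held none of the 3 motifs, that of Sdc3 held 2 SMAD-binding elements and 3 GC boxes, and that of Sdc4 held 4 GC boxes. Among 32851 promoter windows, 49.6% held the SMAD-binding element, 7.81% the AP-1 site and 35.7% the GC box, so these matches are common, and they describe letters in a window and not binding.

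Library totals ranged from 18362378 to 24452153 counts. Levels are given as normalized CPM, counts scaled per library (CPM) by TMM over 9518 genes, those reaching 10 CPM in more than 3 libraries. The replicates differed most in TGF-β1 with DMSO, where the SD over genes of the log2 difference between them was 0.377, against 0.163 in vehicle and 0.147 in TGF-β1 with BI6727, and that difference followed gene length. Of 10 fibroblast markers, 9 were above 10 CPM in every library, while the summed level of 6 epithelial markers was at most 1.28 CPM, of 5 immune markers at most 4.69 CPM and of 5 endothelial markers at most 18.3 CPM. The 6 neural and glial markers summed to 42.6 to 71.1 CPM and were highest in TGF-β1 with DMSO. Krt5, Krt18, Kdr, Adgre1, Cd3e, Sox10 and Rbfox3 were at 0 counts in every library. The 4 myofibroblast markers summed to between 96.1 and 103 CPM in vehicle, 492 CPM in both libraries of TGF-β1 with DMSO and between 338 and 361 CPM with BI6727, nearly all of it from Acta2. Acta2, Tagln and Myl9 were higher in both treated groups than in vehicle, while Cnn1 was lower. Cnn1 was 1.30 and 0.956 CPM in vehicle, 0.290 and 0.0963 with DMSO and 0.445 and 0.580 with BI6727. Because these were bulk samples, fewer cells of one kind and less RNA per cell cannot be told apart.

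Ptn, which spans chr6:36714929-36810220 on the minus strand, was the gene of the family that moved most. Its level was 403 and 371 normalized CPM in the vehicle libraries, 30.1 and 34.4 in the libraries of TGF-β1 with DMSO, and 15.8 and 11.8 in those of TGF-β1 with BI6727. The groups did not overlap, and the lower vehicle library was far above every treated one. The counts behind these values were 7759 and 8145, 623 and 714, and 284 and 285 reads, so that counting error was small beside the differences. Against vehicle, the log2 fold change was −3.58 ± 0.16 (SE, n = 2 per group) with DMSO, a 12-fold lower level, and −4.82 ± 0.17 with BI6727, a 28.2-fold lower level. Divided by exonic length, Ptn stood with Ncl at the top of the family in vehicle, at 113 ± 6.65 CPM per kb (SD, n = 2), a level that overlapped that of Ncl and was higher than 93.9% of the genes tested. In TGF-β1 with DMSO it was 9.39 ± 0.885 CPM per kb, higher than 42.7% of genes, and in TGF-β1 with BI6727 it was 4.02 ± 0.824 CPM per kb, higher than 16.8% of genes.

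**Figure D1:**
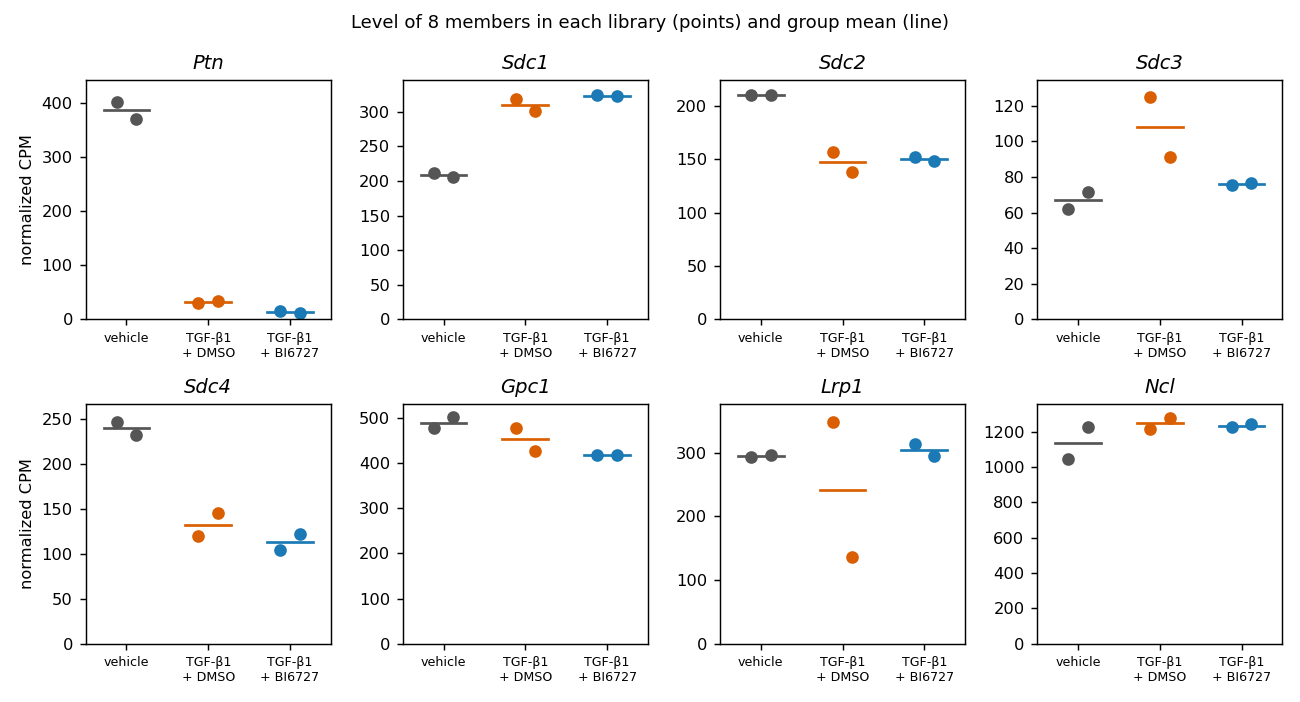
Normalized CPM (vertical axes, from 0, a separate scale for each gene) of the 8 members that passed the filter on low counts, with a point for each of the 6 libraries and a line for the mean of the 2 replicates. Ptn fell from a mean of 387 in vehicle to 32.2 with DMSO and 13.8 with BI6727, and the DMSO replicates of Lrp1 lie far apart, at 348 and 136.

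Midkine and its shared receptor were hardly read in these cells. Mdk had 2 and 2 counts in the vehicle libraries, 13 and 5 in TGF-β1 with DMSO, and 8 and 0 in TGF-β1 with BI6727. The exact 95% Poisson intervals of these counts, which cover counting error only, ran from 0.242 to 7.22 at 2 counts, from 6.92 to 22.2 at 13, and from 0 to 3.69 at 0. In counts not scaled for library size, the interval of every treated library thus overlapped those of vehicle. In normalized CPM both DMSO libraries, at 0.628 and 0.241, were above vehicle, at 0.104 and 0.0910. Ptprz1 had 0 counts in all 6 libraries, which allows a level of up to 3 counts as a one-sided limit (the 3.69 above is the upper end of a two-sided interval), or 0.124 to 0.167 normalized CPM depending on the library. Neither gene passed the filter and neither was tested, which left 8 of the 10 members in the comparisons below.

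Of the 8 members tested, 1 (Ptn) passed the threshold of an adjusted p below 0.01 with a fold change above 2 in TGF-β1 with DMSO against vehicle, where 5.10% of all genes passed it, 2.56% higher and 2.53% lower. With BI6727 against vehicle 2 did (Ptn and Sdc4, both lower), where 5.31% of all genes passed, 2.34% higher and 2.96% lower. Because the members were chosen with this contrast known, nothing is read from these counts. The vehicle and DMSO libraries did not overlap in 5 of the 8 genes, 2 higher and 3 lower with DMSO, against 62.9% of all genes (29.8% higher, 33.1% lower). The vehicle and BI6727 libraries did not overlap in 7 of 8, 3 higher and 4 lower, against 76.8% of all genes (38.4% higher, 38.3% lower). The median log2 fold change over the 8 genes was −0.20 with DMSO and −0.09 with BI6727, beside −0.0045 and 0.0029 over all genes. Both comparisons share the vehicle libraries.

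The 4 syndecans did not move together: Sdc1 and Sdc3 were higher and Sdc2 and Sdc4 lower under TGF-β1 with DMSO. Sdc1, syndecan 1, is best known from epithelial and plasma cells and spans chr12:8771323-8793715 on the plus strand. It stood at 211 and 206 normalized CPM in vehicle, 319 and 301 in TGF-β1 with DMSO, and 324 and 323 in TGF-β1 with BI6727, so both treated groups lay above vehicle without overlap. The log2 fold change against vehicle was 0.57 ± 0.089 with DMSO and 0.63 ± 0.089 with BI6727 (SE, n = 2 per group), 1.49-fold and 1.55-fold.

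Sdc4, syndecan 4, is a component of focal adhesions that acts with integrins, and spans chr2:164424247-164443887 on the minus strand. It was 247 and 233 normalized CPM in vehicle, 120 and 146 in TGF-β1 with DMSO, and 105 and 123 in TGF-β1 with BI6727. Every treated library was below both vehicle libraries, while the 2 treated groups overlapped. The log2 fold change was −0.85 ± 0.13 with DMSO and −1.08 ± 0.13 with BI6727, a 1.81-fold and a 2.11-fold lower level. The second value was just past the fold threshold and was no longer past both thresholds without vehicle replicate 1 (−1.04), vehicle replicate 2 (−1.12), BI6727 replicate 1 (−0.97) or BI6727 replicate 2 (−1.20).

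Sdc2, syndecan 2, which is typical of mesenchymal cells, spans chr15:32920723-33034935 on the plus strand. Its 2 vehicle libraries were both at 210 normalized CPM, against 157 and 138 with DMSO and 153 and 149 with BI6727. All 4 treated libraries were below vehicle. The log2 fold change was −0.51 ± 0.098 with DMSO and −0.48 ± 0.098 with BI6727.

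Sdc3, syndecan 3, is the syndecan first studied as a receptor of pleiotrophin in neural tissue, and spans chr4:130792537-130826319 on the plus strand. It was 62.1 and 71.8 normalized CPM in vehicle, 125 and 91.2 in TGF-β1 with DMSO, and 75.8 and 76.5 in TGF-β1 with BI6727. Both treated groups were above vehicle, and the DMSO libraries were the highest and the most spread. The log2 fold change against vehicle was 0.69 ± 0.16 with DMSO and 0.19 ± 0.16 with BI6727. Of its exonic length, 7.73% is shared with Gm12970 and Gm26716, whose reads could not be told apart from those of Sdc3 there.

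Divided by exonic length and summed over the 4 syndecans, the level was 220 ± 3.66 CPM per kb in vehicle, 193 ± 3.81 with DMSO and 185 ± 3.95 with BI6727 (SD, n = 2). Within that sum the order of the syndecans was different in the treated groups. Sdc4 was the most abundant in vehicle, with 43.6% and 42.1% of the sum, and had 24.0% and 30.0% with DMSO and 22.6% and 25.6% with BI6727. Sdc1 had 24.9% in both vehicle libraries, 42.7% and 41.5% with DMSO and 46.7% and 45.1% with BI6727, and was the most abundant of the 4 in all treated libraries. The share of Sdc2 was 27.1% ± 0.485 in vehicle, 21.6% ± 1.51 with DMSO and 23.1% ± 0.919 with BI6727, and that of Sdc3 was the smallest in every library on this scale, 5.09% ± 0.606, 9.32% ± 1.89 and 6.87% ± 0.103. Without division by length the share of Sdc3 was 9.23%, 15.4% and 11.5% and that of Sdc1 28.7%, 44.4% and 48.7%, and Sdc4 was again first in vehicle, with 33.1%. On that scale Sdc3, at 125 normalized CPM, was above Sdc4, at 120, in DMSO replicate 1.

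**Figure D2:**
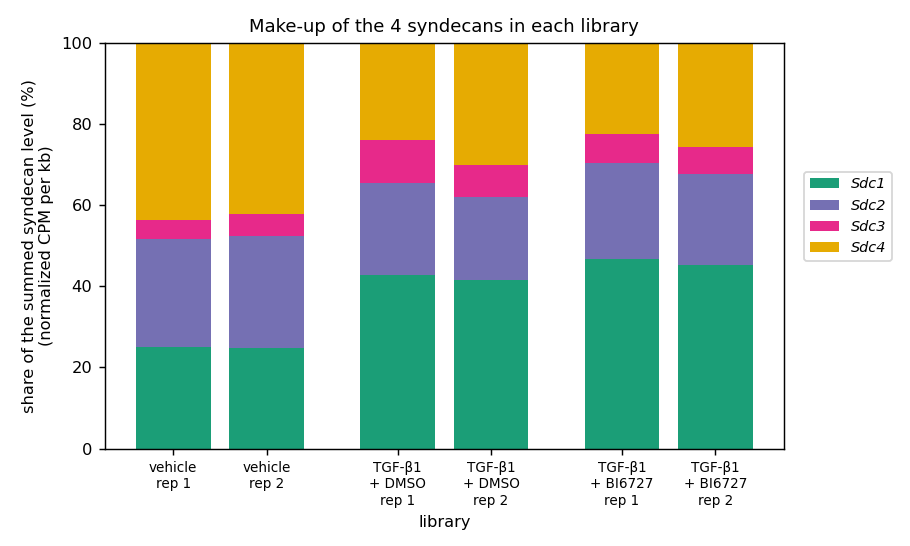
Share (%) of each syndecan in the summed level of Sdc1 to Sdc4 in normalized CPM per kb, with a stacked bar for each of the 6 libraries. The part of Sdc4 was 42.9% on average in vehicle, 27.0% with DMSO and 24.1% with BI6727, while that of Sdc1 was 24.9%, 42.1% and 45.9%.

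The proteoglycan anchored by a lipid moved less than any syndecan under TGF-β1 with DMSO. Gpc1, at chr1:92831645-92860779 on the plus strand, was 477 and 501 normalized CPM in vehicle, 478 and 427 with DMSO, and 417 in both libraries with BI6727. Vehicle and DMSO overlapped, and the BI6727 libraries lay below all others. The log2 fold change was −0.11 ± 0.10 with DMSO and −0.23 ± 0.10 with BI6727. A share of 18.9% of its exonic length is overlapped by Ankmy1, so part of these reads could belong to that gene.

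Lrp1, the endocytic receptor, spans chr10:127538161-127621148 on the minus strand and has the longest exonic sequence of the family, 17717 bases. It was 293 and 297 normalized CPM in vehicle and 314 and 294 in TGF-β1 with BI6727, but 348 and 136 in TGF-β1 with DMSO. One DMSO library was thus above and the other below all others, and the log2 fold change of −0.29 ± 0.36 against vehicle is smaller than its error. Without DMSO replicate 2 it was 0.25, and without DMSO replicate 1 it was −1.12. The log2 difference between DMSO replicates 2 and 1 was −1.35 for Lrp1, in a pair of libraries where its median was −0.47 over the 958 genes with more than 10 kb of exons and 0.37 over the 1618 genes with fewer than 2 kb. With the dependence on gene length taken out of each library by offsets, the log2 fold change of Lrp1 against vehicle was −0.09. With BI6727 against vehicle it was 0.04 ± 0.36. Sdc3, with 5989 bases of exons, also differed between the DMSO replicates, by −0.46, and what part gene length had in either result was not tested further.

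**Figure D3:**
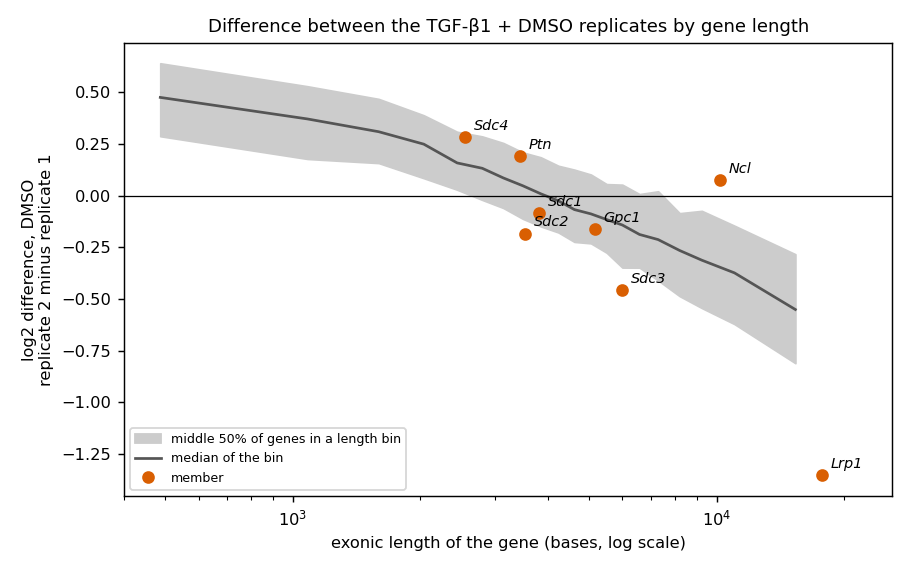
Log2 difference in normalized CPM between replicate 2 and replicate 1 of TGF-β1 with DMSO (vertical axis) against exonic gene length in bases (horizontal axis, log scale), with the median and the middle 50% of the genes tested in bins of length and a point for each of 8 members. Genes of 10 kb and more were mostly lower in replicate 2, and Lrp1, at −1.35, lies below the band.

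Ncl, which codes for the nucleolar protein nucleolin, had the highest counts of the family and spans chr1:86344719-86359400 on the minus strand. It was 1046 and 1226 normalized CPM in vehicle, 1212 and 1279 with DMSO, and 1228 and 1240 with BI6727. Vehicle and DMSO overlapped, while both BI6727 libraries lay just above vehicle. The log2 fold change was 0.13 ± 0.12 with DMSO and 0.12 ± 0.12 with BI6727. Its level per kb, 111 ± 12.5 in vehicle, is uncertain, because its 10188 bases of exons include transcripts with retained introns and 2.12% of them overlap small RNA genes such as Snora75.

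In vehicle the order of levels per kb was Ptn and Ncl, which overlapped, then Gpc1 at 94.7 and Sdc4 at 94.3 CPM per kb, which also overlapped, then Sdc2 at 59.6, Sdc1 at 54.7, Lrp1 at 16.6 and Sdc3 at 11.2. With DMSO it was Ncl at 122, then Gpc1 at 87.7 and Sdc1 at 81.5, which overlapped, then Sdc4 at 52.1 and Sdc2 at 41.8, and last Sdc3 at 18.1, Lrp1 at 13.6 and Ptn at 9.39, where Lrp1 overlapped both its neighbours. With BI6727 the order was Ncl at 121, Sdc1 at 84.9, Gpc1 at 80.8, Sdc4 at 44.7 and Sdc2 at 42.8, which overlapped, Lrp1 at 17.2, Sdc3 at 12.7 and Ptn at 4.02. By group means Ptn thus went from the head of the list in vehicle to the last of the 8 tested genes in both treated groups. By library, Ncl was above Ptn in vehicle replicate 2, and Lrp1 was below Ptn in DMSO replicate 2, at 7.67 against 10.0 CPM per kb.

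**Figure D4:**
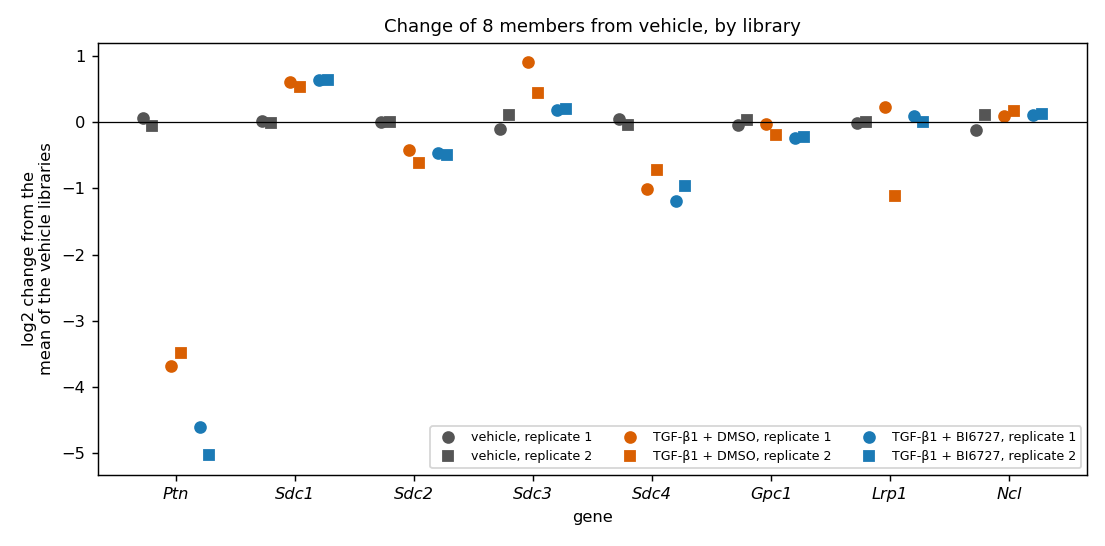
Log2 change in level of 8 members from the mean of the vehicle libraries (vertical axis), with a point for each of the 6 libraries, circles for replicate 1 and squares for replicate 2. Ptn is the lowest gene in all 4 treated libraries, and outside Ptn the values more than 1 log2 unit from vehicle belong to Lrp1 and Sdc4.

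The comparison of BI6727 with DMSO, both under TGF-β1, asked what the inhibitor added. By edgeR's quasi-likelihood test 0 of the 8 members passed the threshold, as did 0% of all genes, and 2 members (Ptn and Sdc3, both lower) had an unadjusted p below 0.05, as did 6.68% of all genes (4.52% of all genes were lower). By DESeq2 1 member passed, Ptn, as did 0.116% of all genes. The groups did not overlap in 4 of the 8 genes, higher with BI6727 in Sdc1 and lower in Ptn, Sdc3 and Gpc1, against 34.1% of all genes (17.0% higher, 17.1% lower). The comparison uses the same DMSO and BI6727 libraries as the comparisons with vehicle, and the median log2 fold change was −0.07 over the members and −0.0028 over all genes.

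Ptn was lower with BI6727 than with DMSO, by a log2 fold change of −1.23 ± 0.16 (SE, n = 2 per group), or 2.35-fold, in edgeR's quasi-likelihood test with an adjusted p of 0.187. Both BI6727 libraries, at 15.8 and 11.8 normalized CPM, were below both DMSO libraries, at 30.1 and 34.4. This difference kept its direction in every setting and ranged from −1.45 to −1.03, the latter close to the fold threshold. Its adjusted p moved widely: it was 8.86e-09 with DESeq2, 0.00651 with edgeR and offsets for gene length, and 0.258 with edgeR and a replicate block. Whether Ptn passed also turned on which library was left out. The replicates of TGF-β1 with DMSO, the group with the largest spread over all genes, enter this estimate of error.

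For the other genes the log2 difference between BI6727 and DMSO was nearer to 0 than for Ptn, and none passed. For Sdc3 the difference was −0.51 ± 0.16 (adjusted p = 0.659), larger than its error, and its groups did not overlap. For Sdc4 it was −0.22 ± 0.13 (adjusted p = 0.772), for Gpc1 −0.12 ± 0.10 (adjusted p = 0.851) and for Lrp1 0.33 ± 0.36 (adjusted p = 0.882), all by edgeR's quasi-likelihood test. For Lrp1 it was −0.21 without DMSO replicate 2 and 1.16, past the threshold, without DMSO replicate 1. Sdc1 at 0.06 ± 0.089, Sdc2 at 0.03 ± 0.098 and Ncl at −0.01 ± 0.12 were closest to 0. These p-values do not show that the groups are alike.

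Around the 10 members, 114 genes of their pathway in 9 lists were examined, of which 83 passed the filter. Against vehicle, 5 of the 83 rose and 1 fell with DMSO, 7.23% beside 5.10% of all genes. With BI6727 6 rose and 2 fell, 9.64% beside 5.31% of all genes. The lists were chosen with earlier results of these data known, so nothing is read from these shares. P-values of list genes against vehicle are given as description. The filter kept genes that reached 10 CPM only in the treated libraries and dropped those that did so only in vehicle, which favours rises. Without DMSO replicate 1 more of the passing genes were lower than higher with DMSO, in the lists and over all genes alike. Between BI6727 and DMSO 0 of the 83 passed by edgeR or by DESeq2, 7 had an unadjusted p below 0.05 by edgeR, and the smallest adjusted p was 0.597. The median log2 fold change of the 83 was −0.13, −0.12 and −0.0012 in these comparisons.

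Among 12 tested genes for other receptors and binding partners of the factors, 3 rose in both comparisons with vehicle. That was 25% of the list, beside 5.10% of all genes with DMSO and 5.31% with BI6727. Itgb3, the integrin β3 chain, which pairs with αv in a receptor for matrix proteins and for pleiotrophin, was 6.18 and 4.73 normalized CPM in vehicle, 64.7 and 43.3 with DMSO and 35.5 and 39.2 with BI6727. All treated libraries were far above vehicle, with log2 fold changes of 3.31 ± 0.24 and 2.78 ± 0.24 (edgeR, adjusted p = 0.000177 and 0.000337). Both vehicle libraries were below 10 CPM, so Itgb3 passed the filter only through its treated libraries. Its p-values are therefore not read as a test, nor is its place among the 3 genes that rose. Its partner Itgav had a log2 fold change of 0.66 with DMSO, which did not pass. Cspg4 (NG2), a transmembrane chondroitin sulfate proteoglycan, rose by log2 fold changes of 1.37 ± 0.25 and 1.45 ± 0.25 (adjusted p = 0.00892 and 0.00687), and Agrn, the heparan sulfate proteoglycan agrin of basement membranes, by 1.16 ± 0.18 and 1.36 ± 0.18 (adjusted p = 0.00500 and 0.00242, edgeR). The levels of Cspg4 in the DMSO libraries were 213 and 121 normalized CPM and those of Agrn 185 and 122, and without DMSO replicate 1 the log2 fold changes were 0.90 for Cspg4 and 0.83 for Agrn, under the fold threshold.

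Among 13 tested genes of heparan sulfate chain synthesis, 1 rose and 0 fell past the threshold against vehicle in either comparison. That was 7.69% of the list, beside 5.10% of all genes with DMSO and 5.31% with BI6727. In each comparison 9 of the 13 log2 fold changes were below 0 and 4 above. B4galt7, the galactosyltransferase that adds a sugar of the linker between protein and chain, was 23.4 and 19.3 normalized CPM in vehicle, 57.4 and 66.7 with DMSO, and 64.4 in both BI6727 libraries. The treated libraries lay above vehicle without overlap, with log2 fold changes of 1.54 ± 0.14 and 1.59 ± 0.14 (edgeR, adjusted p = 0.000458 and 0.000354). The chain polymerases Ext1 and Ext2 had log2 fold changes of 0.69 and −0.49 with DMSO, both under a fold of 2. Of 12 tested genes of chondroitin and dermatan sulfate synthesis, 1 fell in both comparisons, 8.33% of the list beside the same shares of all genes. This was Chst12, a chondroitin 4-O-sulfotransferase, at 35.0 and 32.1 normalized CPM in vehicle, 16.8 and 15.6 with DMSO and 14.0 and 14.8 with BI6727. Its log2 fold changes were −1.05 ± 0.13 and −1.22 ± 0.13 (edgeR, adjusted p = 0.00195 and 0.000950).

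Of 7 tested genes that edit or break down heparan sulfate, Sulf2, an extracellular enzyme that removes sulfate groups from the chains, fell with BI6727 against vehicle (log2 fold change −1.09 ± 0.14, edgeR, adjusted p = 0.00165) and had a value of −0.92 ± 0.13 with DMSO, under the fold threshold. Of 8 tested chaperones and adaptors of LRP1, Furin, the protease that cleaves the LRP1 precursor, rose in both comparisons, at 145 and 137 normalized CPM in vehicle, 351 and 263 with DMSO, and 287 and 282 with BI6727 (log2 fold changes 1.12 ± 0.14 and 1.01 ± 0.14, edgeR, adjusted p = 0.00190 and 0.00272). Of 7 tested substrates and adaptors of PTPRZ1, Magi1, a scaffold protein of cell junctions, rose with BI6727 against vehicle by 1.26 ± 0.20 (edgeR, adjusted p = 0.00498) and had 0.90 ± 0.20 with DMSO, which did not pass. Magi3 of the same list was lower, by −1.52 with DMSO and −1.40 with BI6727. It missed the threshold by edgeR (adjusted p = 0.0108 and 0.0132) and passed it by DESeq2 (adjusted p = 4.38e-06 and 2.09e-05). Sulf2, Furin and Magi1 were 14.3%, 12.5% and 14.3% of the tested genes of their lists with BI6727, beside 5.31% of all genes. With DMSO these shares were 0%, 12.5% and 0%, beside 5.10%. In the lists of 13 tested syndecan partners and sheddases, 10 nucleolar partners of nucleolin and the 1 tested glypican, 0 genes passed in any comparison by edgeR. At an adjusted p below 0.01 alone, 14 of the 83 list genes passed with DMSO against vehicle and 21 with BI6727 against vehicle, beside 9.82% and 10.9% of all genes. Each of the 8 genes named as past the threshold kept its direction in all 15 alternative fits. With DMSO, Agrn, Cspg4, Chst12, Furin and B4galt7 did not stay past the threshold in every fit that left out a library. Over these 6 fits the log2 fold change of Agrn ran from 0.83 to 1.44 and that of Cspg4 from 0.90 to 1.73. Chst12 ran from −1.11 to −0.99, Furin from 0.89 to 1.33 and B4galt7 from 1.41 to 1.68. With BI6727 none of the 8 genes stayed past the threshold in every one of these fits. Itgb3 passed the filter only through its treated libraries, so how often it passed is not read.

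**Figure D5:**
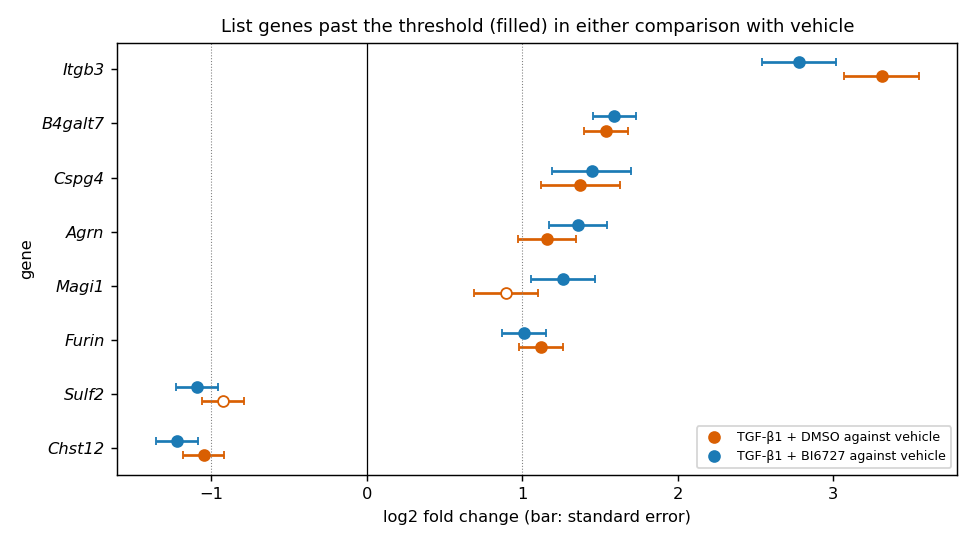
Log2 fold change (horizontal axis) with its standard error (bar) of the 8 list genes past the threshold in either comparison with vehicle, filled where past it and open where not, with dotted lines at 1 and −1. Itgb3 stands at 3.31 with DMSO and 2.78 with BI6727, and the other genes lie between −1.22 and 1.59.

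The genes whose pattern over the 6 libraries was most like that of Ptn were Cxcl5, Efemp1 and Gas1, by the root mean square difference of the log2 change from the mean of vehicle, which was 0.30, 0.56 and 0.83. Cxcl5, a chemokine that attracts neutrophils, was 518 and 362 normalized CPM in vehicle, 29.8 and 30.5 with DMSO, and 12.1 and 11.8 with BI6727. Like Ptn it was lowest in the BI6727 libraries. Efemp1, the matrix protein fibulin-3, was 383 and 328 normalized CPM in vehicle and between 20.7 and 24.1 in all 4 treated libraries, so its BI6727 and DMSO libraries overlapped. Gas1, a membrane protein first found in growth-arrested NIH/3T3 cells, was 633 and 479 normalized CPM in vehicle, 21.8 and 16.3 with DMSO and 13.6 and 13.8 with BI6727, and 19.9% of its exonic length is overlapped by Gm48488. The likeness is a description over 6 libraries that the genes share.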

How the data were processed

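Counts of RNA-seq reads on genes were deposited by the authors without normalization. Per the labels and the study's methods, reads of 50 cycles were mapped to mm10 with Subjunc (Subread 1.6.4) and counted on Gencode M20 with featureCounts. The strand setting is not given in the sources used here, and the authors' own comparisons were not used. Groups and replicate numbers were taken from the labels. The members and gene lists were chosen with earlier results of these data known.

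A gene was kept if it reached 10 CPM in more than 3 libraries (9518 genes). All 6 libraries were scaled by TMM and entered a single edgeR 4.0.16 quasi-likelihood fit in R 4.3.3, with 3 residual degrees of freedom. A gene was past the threshold at a Benjamini-Hochberg adjusted p below 0.01 over all genes tested and a fold change above 2. An exact permutation test of 2 against 2 libraries cannot go below p = 0.333 and was not used. Standard errors are the log2 fold change divided by the square root of F. Levels per kb used the exonic length in the count table. Genes named were the 10 members, list genes past the threshold and the 3 genes most like Ptn. Other list genes are named for context, chosen after their values were seen. Overlap between genes came from the exons of the count table, and transcripts from Gencode M21. Same-numbered replicates deviated with correlations of −0.11, 0.05 and −0.26, so the numbers were not taken to pair them. Alternatives were DESeq2 1.42.0, its size factors, other filters, only the 2 groups compared, a replicate block, length offsets (lowess, span 0.3), no fold minimum and each replicate left out, and, chosen after the data were seen, a crossed block and length offsets with the block. Totals of 18362378 to 24452153 counts set the counting error, and 3 counts were the floor. The test was checked on simulated counts.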

Additional observations from a re-analysis of the deposited data

How the results depend on the processing

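With 2 libraries a group, the error estimate leaned on single libraries. With no fold minimum, 3 members and 14 list genes passed with DMSO against vehicle and 21 list genes with BI6727 against vehicle, beside 9.82% and 10.9% of all genes. Fitting only the 2 groups compared left 3 list genes with DMSO, and over all genes 198 higher and 172 lower, against 244 and 241 in the main fit. Without DMSO replicate 1 more of the passing list genes were lower than higher with DMSO against vehicle, the reverse of the main fit. The same turn was seen over all genes. Leaving out 1 replicate, 1 to 2 members and 1 to 12 list genes passed with DMSO against vehicle, 12 without DMSO replicate 1 and 1 without vehicle replicate 2. With BI6727 against vehicle these ranges were 1 to 2 members and 0 to 9 list genes, 0 without vehicle replicate 2, and for BI6727 against DMSO 0 to 2 members, with 2 without DMSO replicate 1 (Ptn and Lrp1). In that comparison 1 member, Ptn, passed with DESeq2, with length offsets and with length offsets and a replicate block. A lone library left in a group was assumed to vary like the others.

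Same-numbered replicates shared only a number. With the replicate block 4 list genes passed with DMSO against vehicle and 6 with BI6727, against 6 and 8 without it, Ptn was −1.24 with BI6727 against DMSO (edgeR, adjusted p = 0.258), and with a crossed block 7 and 9 list genes passed. Over all 9518 genes the replicate block gave 224 higher and 229 lower with DMSO, and 210 and 268 with BI6727. The crossed block gave 246 and 245 with DMSO, and 232 and 291 with BI6727. Without a block these were 244 and 241, and 223 and 282.

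Directions turned for values near 0. With 1 replicate left out, Lrp1 ranged from −1.12 to 0.25 with DMSO against vehicle and from −0.0031 to 0.087 with BI6727 against vehicle. With BI6727 against DMSO, Lrp1 ranged from −0.21 to 1.16, Sdc2 from −0.069 to 0.13 and Ncl from −0.050 to 0.013. The turns came without DMSO replicate 2 or, for Lrp1 with BI6727 against vehicle, without BI6727 replicate 1. The cause was not tested. Syndecan shares not divided by length were 28.7%, 44.4% and 48.7% for Sdc1 in vehicle, DMSO and BI6727, 29.0% for Sdc2 in vehicle, 9.23%, 15.4% and 11.5% for Sdc3, and 33.1%, 19.1% and 17.1% for Sdc4, and with length offsets Sdc1 in vehicle was 24.7%.

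Over all genes, 244 were higher and 241 lower with DMSO against vehicle, and 402 and 472 with filterByExpr, which tested more genes, or 413 and 488 with at least 10 counts in total. With BI6727 against vehicle 223 and 282 became 366 and 542, or 367 and 562. For BI6727 against DMSO, 0 genes passed by edgeR, with 636 at an unadjusted p below 0.05, and 11 were lower by DESeq2, 6 with length offsets and 8 with length offsets and the block. Leaving out 1 library gave between 79 and 305 higher and between 48 and 487 lower genes with DMSO against vehicle, between 81 and 237 and between 82 and 300 with BI6727 against vehicle, and between 0 and 50 and between 0 and 17 with BI6727 against DMSO, where the most were found without DMSO replicate 1 (50 and 11) and without DMSO replicate 2 (1 and 17).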

Other observations

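Of the 114 list genes, 11 that missed the filter of 10 CPM could be tested with edgeR's filterByExpr, and these were looked at after the filter had removed them. Gpc6, another glypican, was 25.0 and 23.7 normalized CPM in vehicle, 7.73 and 5.25 with DMSO, and 6.56 and 7.91 with BI6727, so all treated libraries were below vehicle. Its log2 fold changes against vehicle were −1.90 ± 0.21 and −1.73 ± 0.21 (SE, n = 2 per group; edgeR, adjusted p = 0.000549 and 0.000803). Sulf1, which like Sulf2 removes sulfate groups from heparan sulfate chains, had 4 and 4 counts in vehicle, 70 and 52 with DMSO, and 21 and 40 with BI6727, with log2 fold changes of 3.89 ± 0.49 and 2.85 ± 0.51 (edgeR, adjusted p = 0.000957 and 0.00549). It thus went up where Sulf2 had lower values, at a level that was at most 3.38 normalized CPM. With 4 counts in each vehicle library, Sulf1 passed this filter only through its treated libraries, so its p-values are not read as a test. Mmp9, a protease that can cut syndecans from the cell surface, was 5.45 and 6.14 normalized CPM in vehicle, 9.80 and 6.60 with DMSO and 12.6 and 19.2 with BI6727, and passed only with BI6727 against vehicle (log2 fold change 1.47 ± 0.27, edgeR, adjusted p = 0.00606). Its difference between BI6727 and DMSO was 0.96 ± 0.26 (edgeR, adjusted p = 0.546), so a difference between the treatments was not shown. Between BI6727 and DMSO 0 of the 11 genes passed by edgeR. Gpc6, Sulf1 and Mmp9 were picked with their values known.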
